A study of Mus musculus with 4 samples.

Results

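The mitochondrial solute carriers and the mitochondrial protein import machinery were described in tibialis anterior (TA) muscle of WT and Fgf21KO mice. Members were every gene of the count table whose symbol begins with Slc25a, Timm or Tomm followed by a digit, together with Mpc1 and Mpc2. The rule gave 64 of the 13825 genes in the table, of which 41 were carriers and 23 were import genes, and all 64 passed the filter on low counts (a mean of 10 or more per library) and were tested. Slc25a2, Slc25a18, Slc25a21, Slc25a31, Slc25a41, Slc25a43, Slc25a48, Slc25a52, Slc25a54, Timm8a2 and Tomm20l were not analysed here. The study asked how the absence of FGF21, a hormone-like growth factor, alters the denervated muscle. TA muscles of adult male mice were collected 14 days after part of the left sciatic nerve had been cut out, as sham (WS) and denervated (WD) muscle of WT mice and as sham (KS) and denervated (KD) muscle of Fgf21KO mice, which lack the gene in the whole body. The sham muscle came from the other leg, which the labels call innervated and the methods call operated without transection. RNA of 4 muscles was pooled per group, so each group was 1 library without replicates, and the spread between mice is not known.

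SLC25 carriers sit in the inner mitochondrial membrane and exchange nucleotides, phosphate, amino acids, carboxylic acids and cofactors between the cytosol and the matrix, and the Mpc1 and Mpc2 proteins form the pyruvate carrier. Nearly all mitochondrial proteins are made in the cytosol and enter through the TOM complex of the outer membrane, after which the TIM23 complex passes presequence proteins to the matrix and the small TIM chaperones hand the carriers themselves to the TIM22 complex for insertion. Skeletal muscle depends on this exchange for the export of ATP to the contractile apparatus.

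The total count over all genes ran from 25249879 in WS to 34141303 in KS, and 3 counts corresponded to 0.129 CPM (counts scaled to the effective library size) in WS and 0.092 to 0.101 CPM in the other libraries. The 13 mitochondrially encoded protein genes took 27.0% and 30.4% of the counts in WS and KS, against 19.4% and 20.6% in WD and KD. Of the fast-fibre markers, Mylpf and Myh1 were measured, at no less than 5277 and 15670 CPM in any library, and the other 6 were not analysed here. Both were lower after denervation, with coefficients of -0.85 and -0.47 and summed levels of 33773 and 31676 CPM in WS and KS against 20944 and 23101 CPM in WD and KD. Fgf21 was not analysed here either, and the genotype labels have no check against the deleted gene. By the test described below, 26.4% of all genes were higher after denervation and 26.6% lower. Of 8 macrophage markers 7 were higher and 0 lower by it, and their summed level was 28.1 and 28.2 CPM in the sham libraries against 63.7 and 63.3 CPM in the denervated ones. All 6 endothelial markers were lower (summed level 343 to 426 CPM in sham and 190 to 201 CPM in denervated muscle), as were 5 of 8 fibroblast markers (646 to 665 against 438 to 449 CPM). The slow-fibre list had 3 of 8 markers measured, and Tnnt1 and Atp2a2 were higher, the list summing to 52.9 and 42.7 CPM in WS and KS against 241 and 219 CPM in WD and KD. Of 6 adipocyte markers, 2 were measured and Fabp4 was lower (list sum 226 to 231 against 159 to 168 CPM), and of 6 Schwann cell markers 3 were measured and Mbp was lower (22.5 to 23.8 against 17.0 to 17.5 CPM), while Adipoq, Plin1 and Sox10 were not analysed here. No measured marker was at 0 in any library. These lists moved with denervation, and their part in the results for the carriers and import genes was not tested. In pooled tissue RNA, fewer cells of a type and less RNA per cell cannot be told apart.

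Most of the abundant carriers were lower after denervation, while import genes moved in both directions at shares near those of all genes. Each gene was tested for a denervation effect common to both genotypes by edgeR's quasi-likelihood test over the 4 libraries, with the pooled libraries treated as samples and p-values adjusted over 13084 genes, and a gene was called at an adjusted p below 0.05. Of the 41 carriers 17 were lower, 7 were higher and 17 did not pass the test, while of the 23 import genes 5 were lower, 7 were higher and 11 did not pass. Over all genes tested 26.4% were higher and 26.6% were lower, so the carriers had 17.1% higher and 41.5% lower, and the import genes 30.4% and 21.7%. By DESeq2's Wald test 5 carriers were higher and 14 lower, and 4 import genes were higher and 4 lower. Over all 13084 genes that test called 2205 higher and 2487 lower. Timm8a1, Timm17b and Timm50 lost their call as higher by it. The median denervation coefficient (log2) was -0.13 for the carriers, -0.05 for the import genes and 0.01 for all genes. Both denervated libraries lay below both sham libraries for 22 carriers and 9 import genes and above them for 10 carriers and 9 import genes, where all genes gave 36.6% below and 38.3% above. The direction was the same in WT and in Fgf21KO for 38 of the 41 carriers and 19 of the 23 import genes, where 82.9% of all genes kept their direction. These directions are relative to the scaling of the libraries. With library totals in place of TMM factors the median coefficient of all genes moved to 0.33, with 6114 called higher and 1674 lower in place of 3450 and 3474. Of the members, 30 were called higher and 10 lower in place of 14 and 22, and 18 turned sign. Using library totals moves every gene of a comparison by about the same amount, so the distance of carriers from all genes could hardly change. The median log2 ratio of the carriers was then 0.08 where all genes had 0.29 in WT, and 0.18 against 0.36 in Fgf21KO. The import genes had 0.29 and 0.32.

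**Figure D1:**
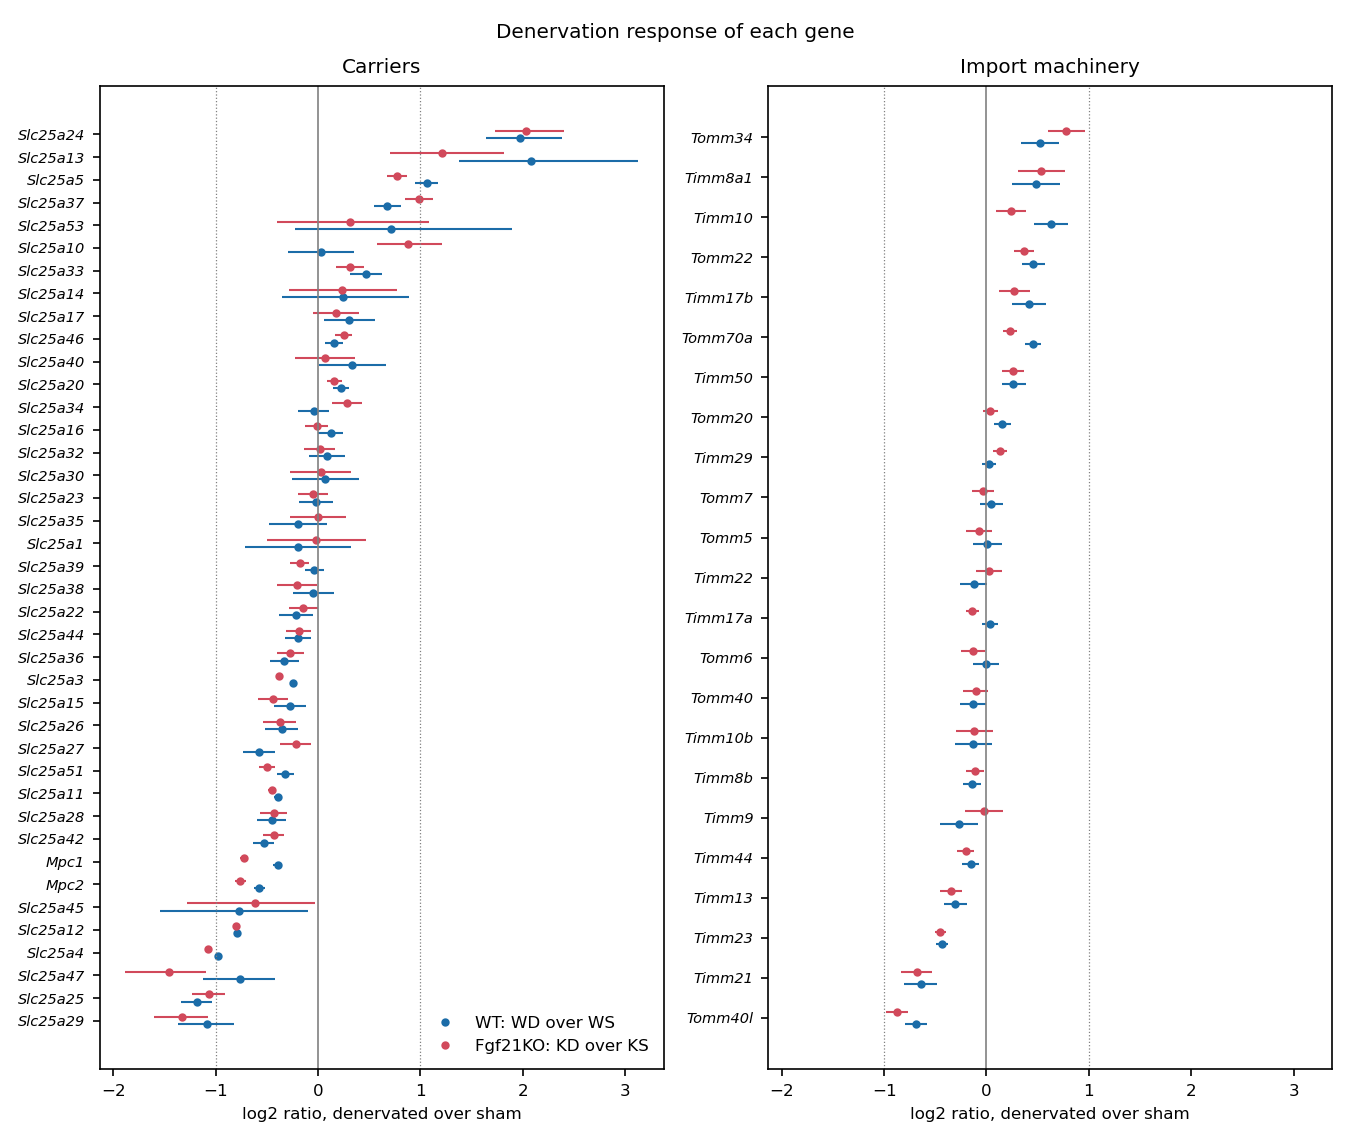
Log2 ratio of denervated over sham (horizontal axis) for the carriers (left, 1 not shown) and the 23 import genes (right), in WT (blue) and Fgf21KO (red), ordered by the denervation coefficient, with bars for 95% counting intervals and dotted lines at 2-fold. The carriers reach from -1.45 to 2.08, whereas the import genes stay between -0.87 and 0.78.

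Few members reached a 2-fold difference between a denervated and a sham library (log2 CPM at a prior count of 2), as few of all genes did. In WD against WS 3 carriers were at least 2-fold higher, Slc25a24, Slc25a13 and Slc25a5, where 7.25% of all genes were, and 2 were at least 2-fold lower, Slc25a25 and Slc25a29, where 7.52% of all genes were. In KD against KS 2 carriers were higher, Slc25a24 and Slc25a13 (7.52% of all genes), and 4 were lower, Slc25a4, Slc25a25, Slc25a29 and Slc25a47 (6.07% of all genes). None of the 23 import genes reached 2-fold in either comparison, and so small a group cannot be set apart from the shares of all genes. The summed level of the carriers was 8717 CPM in WS and 9158 CPM in KS, against 5526 CPM in WD and 5437 CPM in KD. Slc25a4 alone supplied 56.5% and 56.4% of the carrier counts in WS and KS and 45.3% and 45.0% in WD and KD. Without it the carriers summed to 3791 and 3996 CPM in sham and to 3024 and 2994 CPM in denervated muscle. The import genes summed to 1301 and 1344 CPM in sham and to 1270 and 1269 CPM in denervated muscle, a far smaller step.

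The adenine nucleotide translocases moved in opposite directions. Slc25a4 encodes ANT1, the heart and muscle exchanger of ADP for ATP, and was measured at 4927 CPM in WS and 5162 in KS, against 2501 in WD and 2444 in KD. Both denervated libraries held about as much as each other and less than either sham library, and Slc25a4 fell by 1.03 on the log2 scale (SE 0.08, adjusted p = 2.8e-09). Slc25a5 encodes ANT2, the form of proliferating and many other cells, and was measured at 38.0 CPM in WS and 45.8 in KS, against 79.3 in WD and 78.4 in KD. It rose by 0.91 (SE 0.08, adjusted p = 1.5e-08), with no overlap between the sham and denervated libraries. Slc25a5 therefore made up 0.765% of the reads of the pair in WS (95% Wilson interval 0.717 to 0.817) and 0.880% in KS (0.835 to 0.928), but 3.07% in WD (2.96 to 3.19) and 3.11% in KD (2.99 to 3.23). Reads of Slc25a4 outnumbered those of Slc25a5 130-fold in WS and 113-fold in KS, and 31.5-fold and 31.2-fold in WD and KD. A shared scaling factor cancels in these shares, and their intervals cover counting error only. How reads that match more than 1 near-identical gene copy were assigned is not given in the sources used here.

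The sequences upstream of the pair are shown because these carriers of the same substrate moved apart. They are the 250 bases before the RefSeq start on GRCm38.p6, read 5′ to 3′ on the gene's strand, at chr8:46211063-46211312 (minus strand) for Slc25a4 and chrX:36795347-36795596 (plus strand) for Slc25a5, with any match to the motifs searched in capitals.
Slc25a4: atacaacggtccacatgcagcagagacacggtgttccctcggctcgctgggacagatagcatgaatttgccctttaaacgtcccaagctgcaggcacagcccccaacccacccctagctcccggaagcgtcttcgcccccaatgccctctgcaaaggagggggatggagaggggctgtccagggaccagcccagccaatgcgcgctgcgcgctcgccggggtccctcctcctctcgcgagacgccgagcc
Slc25a5: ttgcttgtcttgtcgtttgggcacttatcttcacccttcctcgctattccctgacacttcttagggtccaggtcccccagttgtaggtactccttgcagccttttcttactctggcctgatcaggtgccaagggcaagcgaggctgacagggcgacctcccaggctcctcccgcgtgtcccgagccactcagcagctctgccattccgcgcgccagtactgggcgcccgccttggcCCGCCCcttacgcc
The stretch of Slc25a4 was 64.8% G and C and held no match, and that of Slc25a5 was 61.6% G and C and held 1 GC-box (GGGCGG on the other strand), 14 bases before the start. Over the whole searched windows, which run on for 50 bases after the start, each of the pair had 1 GC-box.

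The ATP-Mg/phosphate carriers, calcium-regulated exchangers that set the adenine nucleotide content of the matrix, showed the same split. Slc25a24 had 73 counts in WS and 91 in KS, against 409 in WD and 394 in KD, or 3.14 and 3.06 CPM in sham and 12.5 and 12.7 CPM in denervated muscle. It had the highest denervation coefficient of all members, 2.03 (SE 0.16, adjusted p = 2.4e-09), and the ratio was 3.93-fold in WT and 4.09-fold in Fgf21KO. Slc25a25 was measured at 39.9 CPM in WS and 31.6 in KS, against 17.5 in WD and 15.1 in KD, and fell by 1.13 (SE 0.10, adjusted p = 7.8e-09). Slc25a23, the third member measured, did not pass the test (coefficient -0.03). Per kilobase it stood at 6.86 and 7.82 CPM in WS and KS and at 6.78 and 7.55 CPM in WD and KD. It was the most abundant of the group in both denervated libraries. Per kilobase of the longest annotated coding transcript, Slc25a25 stood at 11.3 and 8.95 CPM in WS and KS against 0.914 and 0.893 for Slc25a24, whereas in WD and KD the levels were 4.97 and 4.27 for Slc25a25 against 3.66 and 3.71 for Slc25a24. Slc25a25 shares exonic sequence with Naif1 on the opposite strand, and the strand setting of the counting is not given in the sources used here.

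The aspartate/glutamate carriers of the malate-aspartate shuttle gave the third such pair. Slc25a12 (aralar), the form of muscle and brain, was measured at 715 CPM in WS and 703 in KS, against 414 in WD and 404 in KD, and fell by 0.79 (SE 0.07, adjusted p = 1.1e-08). Slc25a13 (citrin), the form of liver, had only 14 counts in WS and 40 in KS, against 90 in WD and 99 in KD. It rose by 1.63 (SE 0.32, adjusted p = 2.5e-04), and both denervated libraries lay above both sham libraries. The share of Slc25a13 in the reads of the pair was 0.084% in WS (95% Wilson interval 0.050 to 0.141) and 0.191% in KS (0.141 to 0.260), against 0.662% in WD (0.539 to 0.813) and 0.787% in KD (0.647 to 0.957). Slc25a22, a glutamate carrier, did not pass the test (coefficient -0.18, adjusted p = 0.14).

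**Figure D2:**
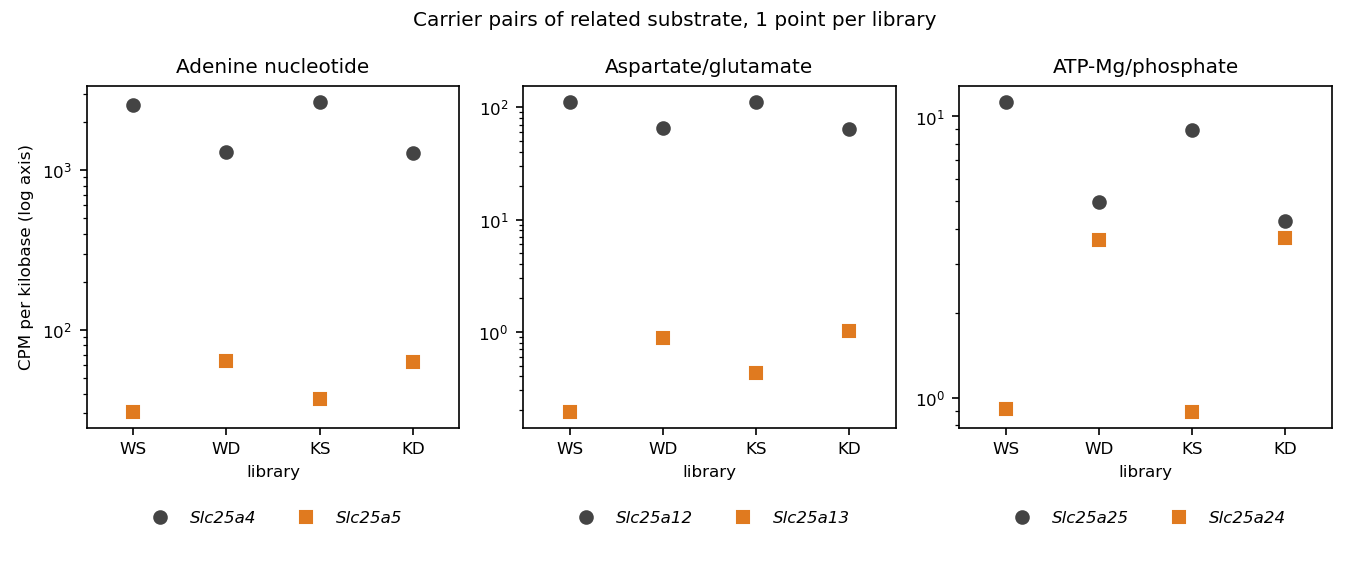
Level of each gene in each library (CPM per kilobase, log axis, 1 point per library) for the adenine nucleotide, aspartate/glutamate and ATP-Mg/phosphate carriers. The more abundant gene of each plotted pair (circles) is lower and the scarcer gene (squares) is higher in both denervated libraries. The levels nearly meet only for Slc25a25 and Slc25a24, at 4.27 and 3.71 in KD. Slc25a23, which is not plotted, stood at 6.78 in WD and 7.55 in KD.

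The carriers of phosphate, pyruvate, carnitine and carboxylic acids are taken next. Slc25a3, which brings phosphate into the matrix, was the second most abundant carrier and was measured at 1087 CPM in WS and 1187 in KS, against 918 in WD and 909 in KD. It fell by 0.31 (SE 0.08, adjusted p = 0.0015), a step that was 0.00 with library totals alone. Mpc1 was measured at 371 CPM in WS and 428 in KS, against 283 in WD and 260 in KD and fell by 0.56 (SE 0.08, adjusted p = 5.7e-06), and its partner Mpc2 fell by 0.67 (adjusted p = 1.7e-07), from 238 and 275 CPM in sham to 160 and 163 CPM in denervated muscle. A pseudogene of Mpc1 was listed at 1554 to 2500 counts and may share reads with it. Slc25a11, the oxoglutarate/malate carrier of the malate-aspartate shuttle, was measured at 396 CPM in WS and 407 in KS, against 302 in WD and 298 in KD and fell by 0.42 (SE 0.07, adjusted p = 4.0e-05). Slc25a20, the carnitine/acylcarnitine carrier of fatty acid oxidation, at 99.4 CPM in WS and 99.4 in KS, against 116 in WD and 111 in KD, rose by 0.19 (SE 0.07, adjusted p = 0.031) and did not pass DESeq2's Wald test (adjusted p = 0.16). Slc25a10, the dicarboxylate carrier, had 139 counts in WS and 129 in KS, against 199 in WD and 249 in KD and did not pass (coefficient 0.47, SE 0.20, adjusted p = 0.059). The adjusted p was 0.029 by edgeR's test with DESeq2's size factors and 0.29 by DESeq2's Wald test. Its log2 ratio was 0.03 in WT and 0.88 in Fgf21KO. The citrate carrier Slc25a1 was low, at 59 to 75 counts per library, and did not pass (adjusted p = 0.76).

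The carriers of cofactors and nucleotides included both lower and higher genes. Slc25a51, the NAD carrier and the most abundant of the group per kilobase, was measured at 96.7 CPM in WS and 105 in KS, against 77.5 in WD and 74.7 in KD and fell by 0.41 (SE 0.08, adjusted p = 1.3e-04). Slc25a42, a carrier of coenzyme A, fell by 0.48, and Slc25a36, a pyrimidine nucleotide carrier, by 0.30, the latter not by DESeq2's Wald test (adjusted p = 0.088). Slc25a33, the other pyrimidine nucleotide carrier, rose by 0.39 (adjusted p = 0.0021), so these relatives also moved apart. Slc25a16, Slc25a17 and Slc25a32 did not pass the test.

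The carriers of other amino acids, S-adenosylmethionine and glutathione had 3 of 7 lower and 0 higher, beside 26.6% and 26.4% of all genes. Slc25a29, a carrier of basic amino acids, had the lowest denervation coefficient of all members, with 289 counts in WS and 408 in KS, against 190 in WD and 168 in KD, or 12.4 and 13.7 CPM in sham and 5.83 and 5.43 CPM in denervated muscle. It fell by 1.22 (SE 0.15, adjusted p = 7.1e-07), to 0.472 of the sham level in WT and 0.399 in Fgf21KO. Slc25a26, which imports S-adenosylmethionine, fell by 0.37, and the ornithine carrier Slc25a15 fell by 0.36, and neither passed DESeq2's Wald test (adjusted p = 0.062 and 0.063). Slc25a39, which brings glutathione into mitochondria, did not pass, at 65.2 CPM in WS and 70.3 in KS, against 63.6 in WD and 62.1 in KD (coefficient -0.11, adjusted p = 0.26), and its sign turned with library totals alone (0.21). Slc25a38, Slc25a40 and Slc25a44 did not pass either.

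The iron carriers, or mitoferrins, were another divided pair. Slc25a37 (mitoferrin 1), known from red cell precursors, was measured at 29.3 CPM in WS and 23.0 in KS, against 46.8 in WD and 45.6 in KD and rose by 0.83 (SE 0.09, adjusted p = 2.9e-07). Slc25a28 (mitoferrin 2), the widely expressed form, was measured at 36.4 CPM in WS and 37.5 in KS, against 26.6 in WD and 27.7 in KD and fell by 0.44 (SE 0.09, adjusted p = 3.2e-04). Per kilobase Slc25a28 remained the more abundant in every library, at 23.7 against 7.02 in WS and 18.1 against 10.9 in KD.

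Of the carriers related to uncoupling proteins, Slc25a27 was measured at 29.2 CPM in WS and 25.4 in KS, against 19.6 in WD and 21.8 in KD and fell by 0.40 (SE 0.11, adjusted p = 0.0041), and Slc25a14 and Slc25a30 did not pass. Among the 6 remaining carriers Slc25a47 had 152 counts in WS and 201 in KS, against 125 in WD and 75 in KD and fell by 1.11 (SE 0.21, adjusted p = 2.0e-04). Slc25a46, which sits in the outer membrane and takes part in mitochondrial fission, was measured at 71.3 CPM in WS and 71.3 in KS, against 79.4 in WD and 84.8 in KD and rose by 0.20 (SE 0.07, adjusted p = 0.027), though not by DESeq2's Wald test (adjusted p = 0.17). Slc25a45, at 31 to 57 counts per library, had a coefficient of -0.72 (SE 0.33, adjusted p = 0.073), and Slc25a53, at 12 to 38 counts, one of 0.52 (SE 0.39, adjusted p = 0.28). Neither passed the test. Slc25a34 and Slc25a35 had coefficients of 0.12 and -0.10 and did not pass.

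In the outer-membrane TOM group 3 of 9 genes were higher and 1 was lower, where 26.4% of all genes were higher and 26.6% lower. The gene that fell was Tomm40l, a paralog of the channel subunit Tomm40, at 61.3 CPM in WS and 67.5 in KS, against 38.1 in WD and 36.9 in KD (coefficient -0.78, SE 0.08, adjusted p = 1.1e-07). Tomm40 itself did not pass (coefficient -0.12, adjusted p = 0.26). Tomm34, a largely cytosolic co-chaperone of preproteins, had 349 counts in WS and 391 in KS, against 702 in WD and 698 in KD and rose by 0.65 (SE 0.11, adjusted p = 7.2e-05). The receptors Tomm22 and Tomm70a rose by 0.41 (adjusted p = 2.1e-04) and 0.34 (adjusted p = 8.1e-04), from 40.2 and 47.7 to 55.3 and 61.6 CPM and from 89.8 and 100 to 123 and 117 CPM in WT and Fgf21KO, respectively. The presequence receptor Tomm20 did not pass (coefficient 0.10, adjusted p = 0.28). Tomm6, a small subunit and the most abundant of the group per kilobase, was at 36.4 CPM in WS and 41.4 in KS, against 36.2 in WD and 37.8 in KD, and the small subunits Tomm5, Tomm6 and Tomm7 had coefficients between -0.07 and 0.01, none of which passed.

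In the TIM23 complex and its motor 3 of 6 genes were lower and 2 were higher, against 26.6% and 26.4% of all genes. Timm23, the channel subunit and the most abundant import gene, was measured at 231 CPM in WS and 222 in KS, against 171 in WD and 162 in KD and fell by 0.44 (SE 0.07, adjusted p = 2.0e-05). Timm21, which links TIM23 to the TOM complex, fell by 0.66 (adjusted p = 1.1e-05), from 28.5 and 30.9 CPM in sham to 18.3 and 19.2 CPM in denervated muscle. Timm44, the anchor of the import motor, fell by 0.18 and passed narrowly (adjusted p = 0.049, or 0.18 by DESeq2's Wald test). Timm50, the presequence receptor of the complex, rose by 0.26 (adjusted p = 0.0098, or 0.11 by DESeq2's Wald test), and Timm17b rose by 0.34 (adjusted p = 0.0069, or 0.098) while its paralog Timm17a did not pass (coefficient -0.05). None of the 3 TIM22 genes passed the test, Timm29 being measured at 119 CPM in WS and 113 in KS, against 121 in WD and 124 in KD. Of the small TIM chaperones, Timm8a1 had 223 counts in WS and 271 in KS, against 437 in WD and 409 in KD and rose by 0.51 (SE 0.13, adjusted p = 0.0026), and did not pass DESeq2's Wald test (adjusted p = 0.065). Timm10 rose by 0.43 (adjusted p = 0.0023) and Timm13 fell by 0.33 (adjusted p = 0.0020). Timm8b, the most abundant of the small TIMs per kilobase, was at 74.1 CPM in WS and 70.3 in KS, against 67.2 in WD and 65.0 in KD and did not pass (coefficient -0.13), nor did Timm9. Mpc1, Slc25a11, Slc25a26, Slc25a35, Timm10b, Timm29, Timm8b, Tomm6 and Tomm70a, like Slc25a25, overlap exons of another gene of the table on the opposite strand.

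The carriers spanned a wide range of levels. Per kilobase and averaged over the 4 libraries they ran from 0.283 CPM (Slc25a53) to 1952 CPM (Slc25a4) with a median of 8.55, and the import genes from 5.32 (Timm10b) to 168 (Timm23) with a median of 21.5. The 5 most abundant carriers were Slc25a4, Slc25a3, Mpc1, Slc25a11 and Mpc2, and all 5 were called lower. With library totals alone Slc25a3 (coefficient 0.004) and Slc25a11 (-0.103) were not called. Of the 10 most abundant carriers 7 were lower and 2 were higher, Slc25a20 and Slc25a5. Of the 10 most abundant import genes 3 were lower and 2 were higher. Over all genes tested, at any level, 26.6% were lower and 26.4% higher, and the share among equally abundant genes is not given. Across genes, Spearman's rho between level and denervation coefficient was -0.34 over the 41 carriers, -0.19 over the 23 import genes and -0.01 over 11555 genes with a length. These are descriptions across genes that share the same 4 libraries and the same transcript lengths, and genes are not independent replicates.

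**Figure D3:**
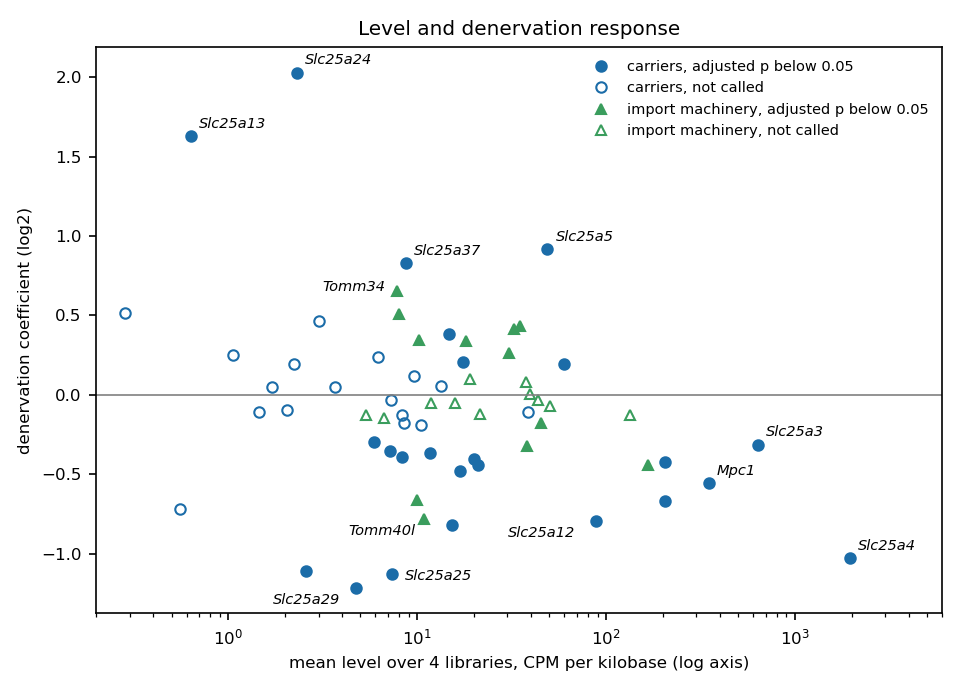
Mean level over the 4 libraries (CPM per kilobase, log axis) against the denervation coefficient (log2) for carriers (circles) and import genes (triangles), filled where the adjusted p was below 0.05. The carriers at the right, above 200 CPM per kilobase, all lie below 0, and the largest increases, Slc25a24 at 2.03 and Slc25a13 at 1.63, are among the scarce carriers.

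No carrier or import gene passed the test for genotype. In the additive model 0 of 41 carriers and 0 of 23 import genes passed the test for genotype in either direction by edgeR's quasi-likelihood test, and 0 by DESeq2's Wald test, where 0.268% of all genes were higher and 0.306% lower in Fgf21KO by the former. At an unadjusted p below 0.05 there were 2 of 41 carriers and 2 of 23 import genes. A threshold of 0.05 lets through about so many without any genotype difference, and the share of all genes is not given. The carriers were Slc25a25, with a genotype coefficient of -0.28 (SE 0.10, adjusted p = 0.39), and Slc25a22, with 0.27 (SE 0.10, adjusted p = 0.43), and the import genes were Timm17a, with 0.20 (SE 0.07, adjusted p = 0.43), and Tomm22, with 0.20 (SE 0.08, adjusted p = 0.51). Slc25a25 was lower in Fgf21KO in both states, at 31.6 against 39.9 CPM in sham and 15.1 against 17.5 CPM in denervated muscle. Slc25a22 was higher in both, at 27.6 against 23.5 CPM in sham and 24.97 against 20.2 CPM in denervated muscle. The largest genotype coefficients otherwise belonged to scarce carriers, 0.65 for Slc25a53, 0.53 for Slc25a13 and 0.28 for Slc25a45, and none passed.

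Between the sham libraries (KS against WS) the median log2 ratio was 0.07 for the carriers, 0.05 for the import genes and 0.00 for all genes. Slc25a13 alone was at least 2-fold higher, at 40 against 14 counts (log2 ratio 1.08, 95% counting interval 0.25 to 2.16), where 0.887% of all genes were, and no member was 2-fold lower (1.15% of all genes). The call on Slc25a13 was lost with library totals alone, a prior count of 5, the deposited log2 values and the exact test at either assumed variation. Between the denervated libraries (KD against WD) the medians were 0.01, -0.03 and -0.01, and no member was 2-fold higher (0.841% of all genes) or lower (0.718%). The lowest ratio there was that of Slc25a47, at 75 against 125 counts (-0.65, 95% counting interval -1.09 to -0.24). Abundant members lay close together in the denervated libraries, Slc25a4 with a log2 ratio of -0.03 and Slc25a3 with -0.02.

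**Figure D4:**
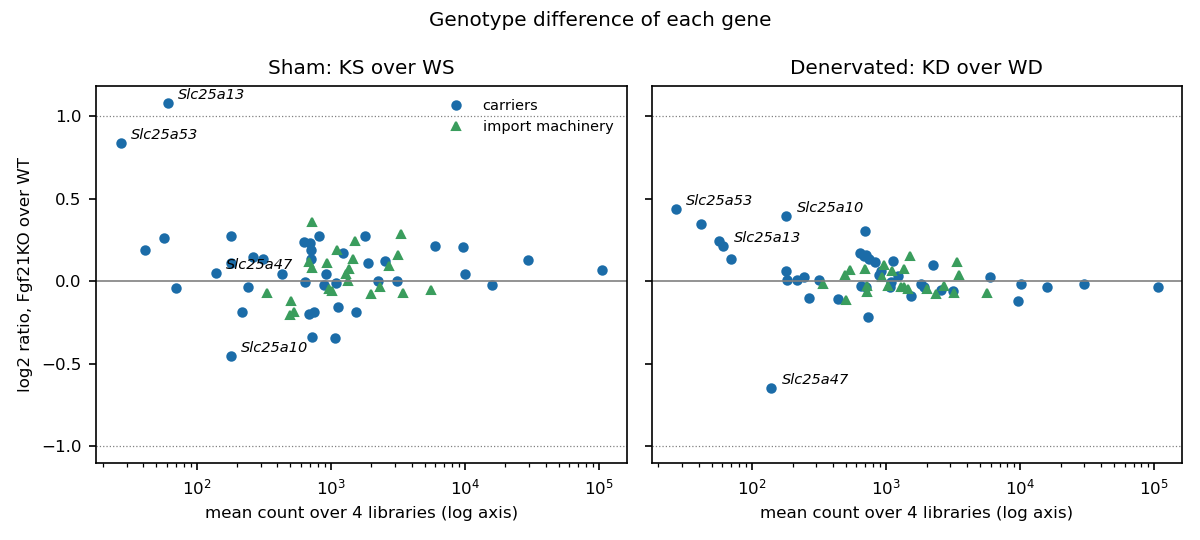
Log2 ratio of Fgf21KO over WT against mean count (log axis) for the sham libraries (left) and the denervated libraries (right), 1 point per gene, circles for carriers and triangles for import genes, dotted lines at 2-fold. Only Slc25a13 in sham muscle, at 1.08, crosses a dotted line, and the points farthest from 0 have low counts.

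The denervation response was set side by side in the genotypes, although the 1 residual degree of freedom of the model is the interaction itself and the difference could not be tested. In WT the median log2 ratio (WD over WS) was -0.19 for the carriers, 0.01 for the import genes and 0.01 for all genes, and in Fgf21KO (KD over KS) it was -0.18, -0.03 and 0.01. The 95% counting interval of the difference in log2 ratio, Fgf21KO minus WT, excluded 0 for 14 of the 41 carriers and 6 of the 23 import genes, where it did so for 29.2% of all genes, and these intervals hold no spread between mice. The largest differences among members with a mean count of at least 50 were those of Slc25a13, Slc25a10, Slc25a47 and Timm10. Slc25a13 had a ratio of 2.08 in WT and 1.21 in Fgf21KO (difference -0.87, interval -1.84 to 0.10). Slc25a10 had 0.03 in WT and 0.88 in Fgf21KO (0.85, interval 0.41 to 1.29), its 4 levels being 5.97 CPM in WS and 4.34 in KS, against 6.10 in WD and 8.05 in KD. Slc25a47 had -0.76 and -1.45 (-0.70, interval -1.21 to -0.18), and Timm10 had 0.63 and 0.24 (-0.39, interval -0.61 to -0.17), with 18.1 CPM in WS and 23.2 in KS, against 28.0 in WD and 27.5 in KD. For Slc25a13 and Timm10 the counting interval of KD over WD held 0 and that of KS over WS did not, and for Slc25a47 the reverse was found. Among abundant members, Mpc1 had -0.39 in WT and -0.72 in Fgf21KO (difference -0.33, interval -0.38 to -0.27), and Slc25a12 had -0.79 and -0.80.

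Promoter windows of RefSeq on GRCm38.p6, from 250 bases before to 50 after each start, were found for 32 carriers (42 windows) and 20 import genes (22 windows) and searched on both strands for 8 motifs. A GC-box (GGGCGG) stood in 90.5% of the carrier windows and 11 of the 22 import windows, against 62.1% of the windows of all genes tested. An E-box (CACGTG) stood in 16.7% and 18.2%, against 1254 of the 12495 windows of all genes tested. The cAMP response element (CRE, TGACGTCA) stood in 4.76% and 0%, against 3.04%, and an NRF1 motif (GCATGCGC) in 0% and 4.55%, against 5.07%. An ERR motif (TCAAGGTCA) was found in 1 import window and no carrier window, against 0.304% of the windows of all genes tested, and a YY1 motif (AAGATGGC) in 2.38% and 4.55%, against 4.36%. TATAAA stood in 0% and 9.09%, against 7.19%, and a MEF2 motif (CTAAAAATA) in no window of either group, against 0.288%. A match describes the letters of a window, not a bound site. Stretches of 30 bases are shown, read on the gene's strand with the match in capitals. They cover the 2 ATP-Mg/phosphate carriers that moved apart, Slc25a13, and the import genes with the only NRF1 and ERR matches of the members.
Slc25a25, CRE 150 bases before the start, chr2:32424198-32424227: tctgcaagcagTGACGTCAgtcctgatctt
Slc25a24, GC-box 139 bases before the start, chr3:109122998-109123027: cctgggccagctCCGCCCagagcagcagct
Slc25a13, E-box 125 bases before the start, chr6:6217281-6217310: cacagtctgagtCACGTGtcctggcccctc
Timm13, NRF1 motif 192 bases before the start, chr10:80901143-80901172: ttatattgtacGCATGCGCagcggggaggt
Timm8b, ERR motif 96 bases before the start, chr9:50603795-50603824: tttcgagggcTCAAGGTCActctacaaccc
The CRE of Slc25a25 lies in 1 of its 3 windows, and 2 of those windows also hold a GC-box, as does the window of Slc25a24, which has 2. A GC-box stood in 9 of 13 windows of members called higher after denervation and in 14 of 20 windows of members called lower, and an E-box in 4 of 13 and 2 of 20.

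Related genes outside the naming rule were read beside the members. Of 27 import genes with other names 6 (22.2%) were higher and 7 (25.9%) were lower, near the 26.4% and 26.6% of all genes, among them Mtch1, a relative of the outer-membrane insertase Mtch2 (coefficient 1.12), and Immp2l, an inner-membrane peptidase (0.56), which rose, and Dnajc19 (-0.52), a motor co-chaperone, and Samm50 (-0.28), the core of the outer-membrane assembly complex, which fell. Of 22 carriers and channels with other names 18 were measured, with 4 higher (22.2%) and 9 lower. Mtch1, which is on both lists, and Micu2, a regulator of the calcium uniporter (1.01), rose, and the sideroflexins Sfxn3 (-1.55) and Sfxn5 (-1.35) fell. All 13 mitochondrially encoded protein genes were lower (median coefficient -0.81), from ND2 (-1.35) to ND6 (-0.65), and both mitochondrial rRNAs, mt-Rnr1 (-0.83) and mt-Rnr2 (-1.17), were lower, in libraries made by poly(A) selection.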

How the data were processed

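TA muscle RNA was sequenced as 1 library per group (TruSeq Stranded mRNA, 4 muscles pooled). The authors deposited raw read counts for each gene and, separately, values on a log2 scale. Although named for FPKM, the deposited log2 values were found to be counts multiplied by a constant for each library, with 1 added before the logarithm, and carry no length correction. The submitters' processing notes name GRCm39 and FastQC, and the aligner, counter and strand setting are not given in the sources used here. Columns were assigned to groups by the abbreviations the study gives, and 0 columns of other samples were present. Depth was 25249879 (WS), 29150147 (WD), 34141303 (KS) and 27740920 (KD) counts over the genes analysed.

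Genes averaging 10 or more counts per library (13084) were fitted with edgeR 4.0.16 (R 4.3.3), TMM factors of 0.922 (WS), 1.119 (WD), 0.870 (KS) and 1.115 (KD), and the additive model of genotype and surgery, whose common biological coefficient of variation was 0.068. The quasi-likelihood test was used with Benjamini-Hochberg adjustment over all genes tested. It treats pooled libraries as samples, so its p-values rest on how alike the genotypes responded and not on the spread between mice. Ratios between 2 libraries have exact binomial 95% counting intervals and no p-value. Levels per kilobase used the longest protein-coding transcript of GENCODE M21. Promoter sequences are from RefSeq (GRCm38.p6). Scripts were tested on simulated data.

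Members named with all 4 values were the 8 lowest and 8 highest denervation coefficients, the most abundant gene per kilobase of each role, the 4 largest genotype coefficients and the 4 largest differences in response, with the 2 highest and 2 lowest called genes of each other list. A result that falls under this rule is not reported here. Other members named were chosen after their values were seen. The members and lists were chosen with earlier results of these data known. Alternatives were DESeq2 1.42.0 (Wald test and size factors), library totals alone, TMM without mitochondrially encoded genes, no filter, a minimum mean count of 50, a 2-fold requirement, prior counts of 0.125 and of 5, ratios of the deposited log2 values, and edgeR's exact test at an assumed variation of 0.1 and 0.2. Statistics in Python 3.11.15 used scipy 1.17.1.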

Additional observations from a re-analysis of the deposited data

How the results depend on the processing

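Of the counts and medians recomputed, 170 were labelled alike and 26 moved, and no genotype call appeared under the alternatives tried. The 170 include counts that were 0 at every setting, and small changes. Among the latter, the KS over WS median with library totals alone went from 0.067 to -0.016 for carriers and from 0.046 to -0.036 for import genes. With library totals alone, which shift every gene upward after denervation, the carriers had 15 higher and 8 lower and the import genes 15 higher and 2 lower. Over all 13084 genes tested, 6114 were called higher and 1674 lower at that setting. The median log2 ratio was then 0.084 (WT) and 0.178 (Fgf21KO) for the carriers and 0.288 and 0.324 for the import genes, reversed in sign except for the import genes in WT, against 0.287 and 0.364 for all genes. The members 2-fold lower in WD against WS became 0, those in KD against KS 6 higher and 1 lower, and those higher in KS against WS 0. Under that scaling 18 members turned sign. Among them Slc25a3 (0.004), Slc25a36 (0.019) and Timm44 (0.141) lost their call. Slc25a39 (0.211), Timm8b (0.191) and Tomm6 (0.250) became called higher (adjusted p = 0.0268, 0.0415 and 0.0238 by edgeR's quasi-likelihood test). Members that kept their sign but lost their call included Slc25a11, Slc25a27, Slc25a28, Slc25a51 and Timm23. With a 2-fold requirement added to the adjusted p, 2 carriers were higher and 4 lower, and 0 import genes passed either way. The share of all genes is not given for this or the other 2-fold results of this section. No contrast between carriers and import genes is therefore drawn from them. By DESeq2's Wald test 4 import genes were higher, where 2205 of all genes tested were. On the deposited log2 values 1 member was 2-fold lower in WD against WS, 1 higher in KD against KS and 0 higher in KS against WS. By the exact test at an assumed variation of 0.2 the same counts were 0, 1 and 0, with 2 lower in KD against KS, and at 0.1, or with a prior count of 5, 0 members were 2-fold higher in KS against WS. Beyond the scaling shift and the added threshold, the cause was not tested. No paired analysis was possible because the labels carry no replicate numbers and a single pool stands for each group, beyond the genotype term, which joins the sham and denervated legs of a genotype. Leaving out a replicate was likewise not possible. Depth limits Slc25a1, Slc25a13, Slc25a14, Slc25a45 and Slc25a53, which had under 100 counts in every library.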
